A study of Arabidopsis thaliana with 30 samples.

Results

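This section describes how transcript levels in cut hypocotyls of the Col-0 wild type of Arabidopsis thaliana changed between 1 and 3 h after cutting. Its libraries were taken by their labels, the 3 wild-type libraries at 3 h against the 3 at 1 h, which are 6 of the 30 libraries of the series. All groups were whole hypocotyl explants of 7-day-old seedlings grown in the dark, with about 50 explants pooled in each of 3 biological replicates of a group. The other groups used here are the hsfa1abd-2 mutant, also in the Col-0 ecotype, at 0, 0.5, 1, 3 and 24 h, and the wild type at 0, 0.5 and 24 h. Every library, those at 0 h included, carries the label of a wounding treatment. No uncut seedlings followed over the same hours were analysed here, so time since cutting and time of day cannot be told apart.

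Cutting a plant organ sets off calcium, reactive oxygen and jasmonate signals within minutes. A set of early response genes, many of which encode transcription factors, is induced rapidly and often transiently. Later waves of transcription cover defence, hormone synthesis and signalling, wall repair and, in explants, the return of differentiated cells to division and callus formation. HSFA1A, HSFA1B and HSFA1D, for which the mutant is named, are transcription factors of the heat shock factor family that act at the top of the response to heat.

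No gene identifier accompanies the rows of the table, so each row is treated as 1 transcript feature and only 4 are given, by their number from the top of the table. Tissue markers and the HSFA1 genes could therefore not be read, and neither the tissue nor the genotype label was checked against them. Rows are grouped instead by direction, size and timing. Because RNA came from whole explants, fewer cells of a type and less RNA per cell cannot be told apart.

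Libraries at 3 h held 3643380, 4296509 and 3980134 counts, and those at 1 h 3780173, 3399828 and 3482589. Outside these, 1 library of the series, wild type 0.5 h replicate 1, was shallow at 578179 counts, and it enters every value below that uses the wild type at 0.5 h, as well as the common fit. Rows with at least 1 count numbered 21200 ± 155 at 3 h and 21121 ± 119 at 1 h (SD, n = 3 each, two-sided exact permutation p = 0.6, where the smallest possible p is 0.1). The 100 most abundant rows took 23.9% ± 0.185 of counts at 3 h and 23.7% ± 0.284 at 1 h (SD, n = 3 each, exact permutation p = 0.3). Neither the number of rows read nor the concentration of counts therefore differed beyond the spread between libraries.

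A library at 3 h differed from one at 1 h by more than replicates differed from each other. The median absolute difference over tested rows was 0.365 to 0.383 on the log2 CPM scale in the 9 pairs across times. It was 0.198 to 0.219 in the 3 pairs within 3 h and 0.203 to 0.217 in the 3 pairs within 1 h. Correlations of log2 CPM across rows were 0.922 to 0.929 between times, 0.977 to 0.980 within 3 h and 0.977 to 0.978 within 1 h. Chi-square statistics of replicate pairs, divided by their degrees of freedom, lay between 2.14 and 3.48. This exceeds counting noise, so that no library was treated as a repeat of another.

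Between 1 and 3 h many of the measured transcript features changed, about as many upwards as downwards. In edgeR quasi-likelihood tests, Benjamini-Hochberg adjusted and read at a threshold of 0.05, 5205 of 18526 tested rows (28.1%) were called. Of these, 2901 (15.7% of tested rows) were higher and 2304 (12.4%) were lower at 3 h. At least 2-fold changes numbered 1122 higher (6.06%) and 931 lower (5.03%). The median called rise was 0.82 and the median called fall -0.85 on the log2 scale, while the median over all tested rows was 0.05. The balance of directions depends on how libraries are scaled. Rises were 55.7% of calls with TMM scaling, 49.6% with DESeq2's size factors in the same test and 47.6% with the 5 most abundant rows left out, so neither direction is given as the more frequent. Large changes were more often rises under both scalings. Among changes of at least 8-fold, 123 rows were higher and 54 lower (69.5% higher), against 122 and 58 (67.8% higher) with DESeq2's size factors. Among those of at least 16-fold there were 44 and 16.

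**Figure D1:**
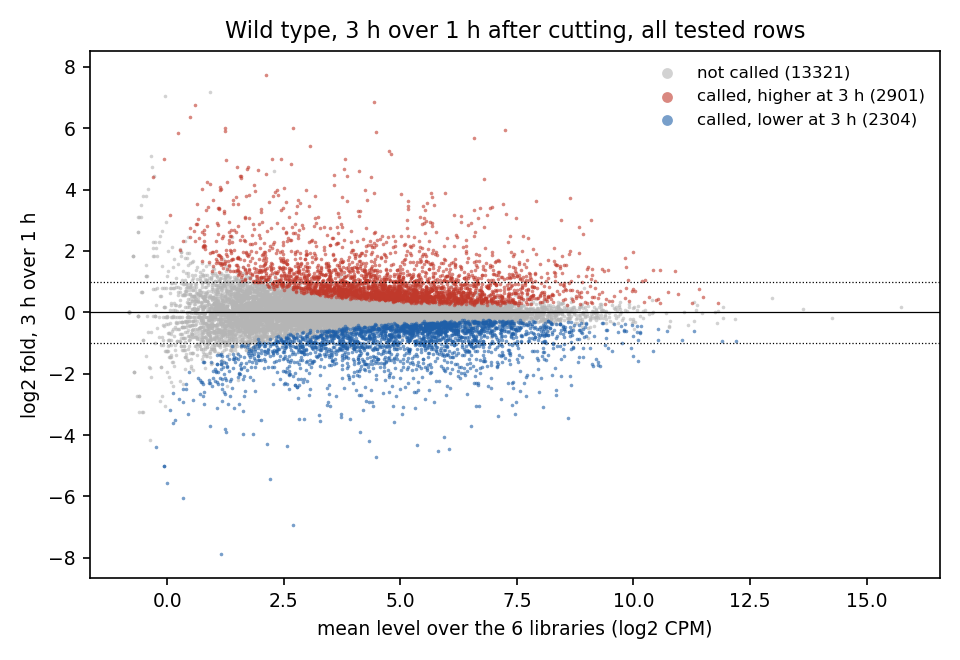
Each point is 1 of 18526 tested rows, with its mean level over the 6 wild-type libraries (log2 CPM) on the x axis and the log2 fold of 3 h over 1 h on the y axis. Red points are the 2901 rows called higher at 3 h, blue points the 2304 called lower, and dotted lines mark 2-fold changes. Smaller changes are called among abundant rows than among rare ones.

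The share of rows called grew with their level. Rows were split by mean level into 4 bins of equal size. In the lowest bin, rows of 0.467 to 7.39 CPM, 16.2% were called and the smallest called change was 0.58 on the log2 scale. In the highest bin, from 45.8 CPM upwards, 40.6% were called and the smallest called change was 0.23. Changes of at least 2-fold were found at all levels, in 14% of the lowest bin, 10.3% and 9.26% of the middle bins and 10.7% of the highest. The smallest changes called among abundant rows, under 0.58, were thus not detectable at this depth in the lowest bin, though the median called change in the highest bin, 0.63, was above that limit.

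The steps on either side of this interval share its libraries, so their counts are given only side by side. From 0.5 to 1 h, 3810 rows (20.6%) were called, 1981 higher and 1829 lower at the later time. From 3 to 24 h, 10347 rows (55.9%) were called, 4793 higher and 5554 lower. Among changes of at least 8-fold, 68 rows were higher and 19 lower at 1 h in the step from 0.5 to 1 h (78.2% higher). In the step from 3 to 24 h, 124 such rows were higher and 500 lower at 24 h. An excess of rises among large changes was thus also found in the step before this one.

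The 4 rows named here are the largest called rises and falls among the 3606 called rows with at least 10 CPM in both groups and libraries that do not overlap. Row 22561 had 1320, 983.5 and 1224 CPM at 3 h, against 17.4, 23.3 and 16.9 CPM at 1 h. Every 3 h library lay above every 1 h library, with a log2 fold of 5.94 (approximate SE 0.331, edgeR adjusted p = 2.02e-12). Over the whole course its wild-type mean was 3.26 ± 2.7, 11.4 ± 4.31, 19.2 ± 3.53, 1176 ± 173 and 82.4 ± 15.6 CPM at 0, 0.5, 1, 3 and 24 h in turn (SD, n = 3 each). Its 3 h level was the highest of the 5 times in both genotypes.

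Row 22550 had 750.8, 556.1 and 715.1 CPM at 3 h, against 12.8, 16.7 and 10.2 CPM at 1 h. The groups did not overlap, and the log2 fold was 5.67 (approximate SE 0.34, edgeR adjusted p = 9.37e-12). Its wild-type mean was 6.26 ± 3.04, 14.9 ± 3.83, 13.2 ± 3.27, 674 ± 104 and 75.6 ± 8.41 CPM at 0, 0.5, 1, 3 and 24 h in turn (SD, n = 3 each). The change at 0.5 h did not pass the test for this row (log2 fold 1.11, edgeR adjusted p = 0.0911), whereas that of row 22561 did (log2 fold 1.97, edgeR adjusted p = 0.00399). Both rows were low through the first hour, high at 3 h and still above the 0 h level at 24 h (log2 folds of 4.64 for row 22561 and 3.58 for row 22550, edgeR adjusted p = 5.74e-10 and 1.57e-08).

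Row 8539 had 11.5, 7.79 and 15.7 CPM at 3 h, against 300.1, 266.4 and 228.6 CPM at 1 h. All 3 h libraries were far below all 1 h libraries, with a log2 fold of -4.51 (approximate SE 0.247, edgeR adjusted p = 1.52e-13). Its wild-type mean was 1.68 ± 0.79, 144.7 ± 28.7, 265 ± 35.8, 11.7 ± 3.97 and 4.56 ± 1.23 CPM at 0, 0.5, 1, 3 and 24 h in turn (SD, n = 3 each). The row was thus high at 0.5 and 1 h and low again at 3 h, though its 3 h mean was still above its 0 h mean.

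Row 30247 had 12.1, 17.6 and 11.9 CPM at 3 h, against 288.7, 331.1 and 292.6 CPM at 1 h. The groups did not overlap, and the log2 fold was -4.44 (approximate SE 0.291, edgeR adjusted p = 2.21e-11). Its wild-type mean was 30.1 ± 3.53, 194.2 ± 29.5, 304.1 ± 23.5, 13.8 ± 3.25 and 4.37 ± 1.56 CPM at 0, 0.5, 1, 3 and 24 h in turn (SD, n = 3 each). Unlike row 8539 it was lower at 24 h than at 0 h, with a log2 fold of -2.78 (edgeR adjusted p = 1.03e-06), where row 8539 had a log2 fold of 1.44 (edgeR adjusted p = 0.0199). By the same rule the next 10 rises had log2 folds of 4.35 down to 3.48 and the next 10 falls -4.07 to -3.07.

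**Figure D2:**
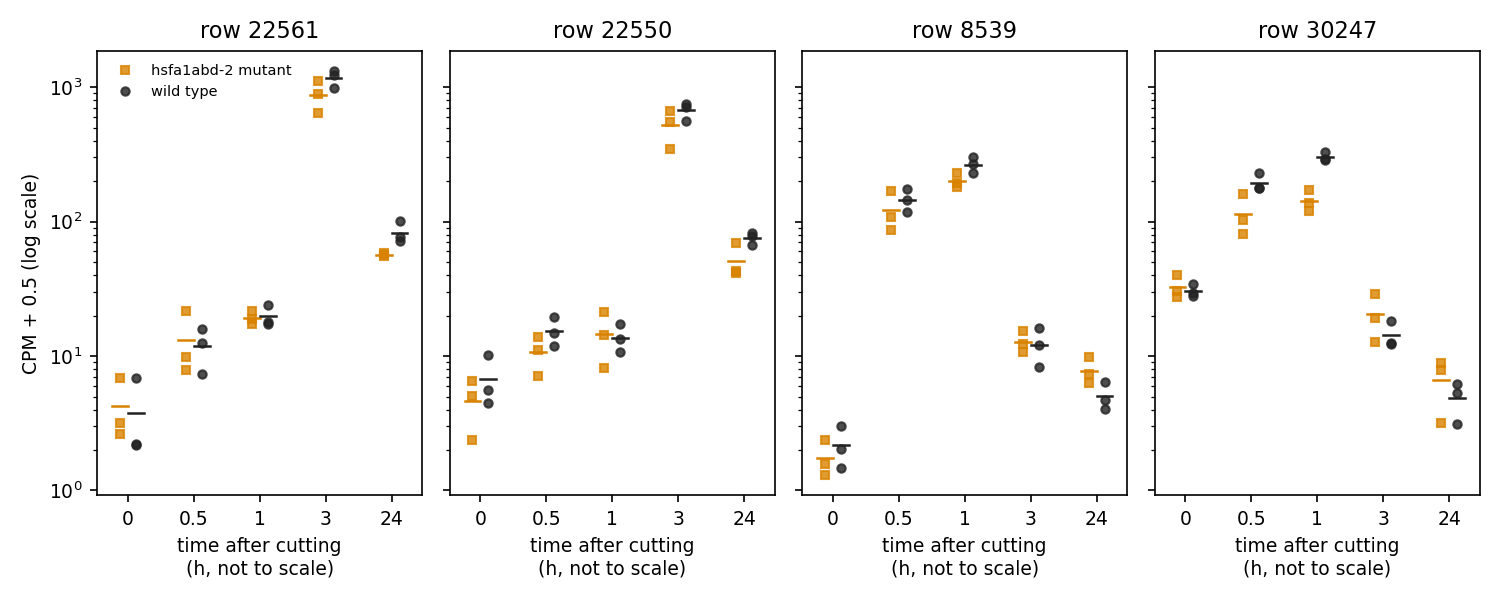
Level of the 4 named rows in each library (CPM + 0.5, log scale) by time after cutting. Points are libraries, horizontal lines are means of 3 libraries, squares are the hsfa1abd-2 mutant and circles the wild type. Rows 22561 and 22550 peak at 3 h, and rows 8539 and 30247 are high at 0.5 and 1 h and low at 3 h.

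Some rows were read at only 1 of the times. In the whole table, 131 rows had more than 3 counts summed over the 3 h libraries and none at 1 h, and 103 rows had more than 3 counts at 1 h and none at 3 h. Taking a group floor of 3 counts, the strongest rise of this kind was at least 15.2-fold higher at 3 h, with 51 counts against 0. The strongest fall of this kind was at least 30.6-fold lower at 3 h, with 0 counts against 82. Only 13 and 7 of these rows passed the filter on low counts, of which 5 were called higher and 6 called lower. In all, 22831 rows had a count at 3 h and 22786 at 1 h.

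The rows that changed at least 2-fold took different courses over the other times. The values at 1 and 3 h chose these rows, so they are a description only. The 1122 risers had a median level of 2.67, 3.09, 3.01, 4.65 and 3.65 log2 CPM at 0, 0.5, 1, 3 and 24 h in turn in the wild type. The 931 fallers had 3.42, 4.74, 4.94, 3.40 and 3.14 log2 CPM at 0, 0.5, 1, 3 and 24 h in turn. SDs over the 3 libraries were 0.0166 to 0.1 for the risers and 0.0258 to 0.174 for the fallers. The risers as a set thus moved little from 0.5 to 1 h and stood above their 0 h level at 24 h. The median of the fallers had been raised at 0.5 and 1 h and was back at about its 0 h level by 3 h. The highest wild-type mean fell at 3 h for 787 of the risers and at 24 h for another 256. Among the fallers it was the 1 h mean for 461, the 0.5 h mean for 277 and the 0 h mean for 117. Single fallers took mixed courses, with the lowest wild-type mean at 24 h for 364, at 0 h for 284 and at 3 h for 262.

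**Figure D3:**
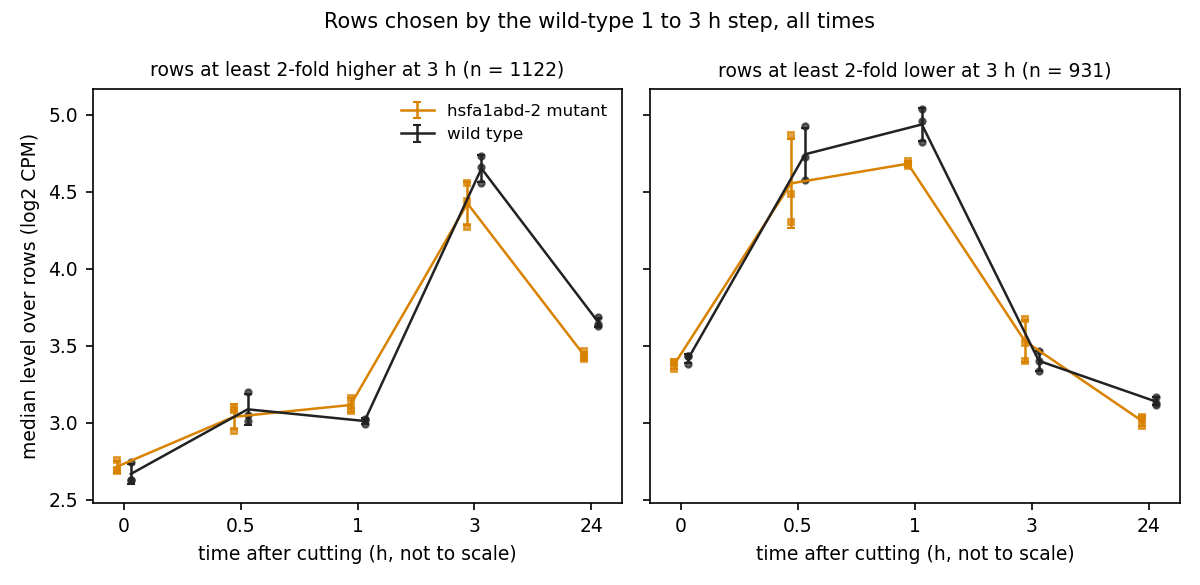
Median level (log2 CPM) of the 1122 rows at least 2-fold higher and the 931 rows at least 2-fold lower at 3 h than at 1 h in the wild type, over 5 times. Points are libraries, lines join the means of 3 libraries and bars are SDs. The risers stand at 4.65 at 3 h in the wild type and the fallers at 3.40, against 3.01 and 4.94 at 1 h.

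The share of all counts gives the size of this exchange for the same rows. Its direction between 1 and 3 h was fixed by the choice of rows. The 2-fold risers took 10.9%, 9.68% and 10.7% of counts in the 3 h libraries, against 3.42%, 3.28% and 3.41% in the 1 h libraries. The 2-fold fallers took 2.82%, 2.72% and 3.06% at 3 h, against 9.29%, 8.71% and 8.33% at 1 h. At 24 h the risers held 6.56% ± 0.233 and the fallers 2.14% ± 0.0209, and at 0 h 2.35% ± 0.0863 and 4.02% ± 0.222 (SD, n = 3 each). By share of counts, unlike by their median level, the fallers thus stood lower at 3 h than at 0 h.

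Whether rows that moved early moved again between 1 and 3 h was read from classes made in libraries that the step does not use. By the change from 0 to 0.5 h in the wild type, 1728 rows (9.33%) were called at least 2-fold higher and 681 (3.68%) at least 2-fold lower at 0.5 h. Of the early risers, 684 (39.6%) were called lower at 3 h than at 1 h and 376 (21.8%) called higher, against 12.4% and 15.7% of all tested rows. Their median log2 change over the step was -0.33, against 0.05 over all tested rows. Early risers were therefore called in both directions more often than the average row, and their falls outnumbered their rises. Their median level at 1 and 3 h was above that of all tested rows. More rows are called at higher levels, and shares at a like level were not compared. Of the 931 rows that fell at least 2-fold in the step, 453 were among these early risers.

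Rows that had fallen early were called over the step about as often as all tested rows or less often. Of the 681 rows at least 2-fold lower at 0.5 h, 91 (13.4%) were called higher and 43 (6.31%) lower over the step, both below the shares of all tested rows, while 47 (6.9%) rose at least 2-fold, against 6.06% of all. Of the 1722 rows with any called fall at 0.5 h (9.3% of those tested), 287 (16.7%) were called higher and 165 (9.58%) lower. These shares were slightly above those of the 14207 rows not called at 0.5 h, 14.4% higher and 8.31% lower. The median log2 change of the 681 rows was 0.10. Their median level was 3.92, 2.59, 2.87, 3.05 and 3.05 log2 CPM at 0, 0.5, 1, 3 and 24 h in turn. The median over all tested rows was higher, 4.15 at 1 h and 4.25 at 3 h. Fewer rows are called at low levels, and shares at a like level were not compared. The early risers, by contrast, had medians of 2.94, 5.21, 5.18, 4.91 and 3.66 at 0, 0.5, 1, 3 and 24 h in turn. Most of the return of the early risers as a set therefore lay after 3 h. The values at 0 and 0.5 h chose both classes. The class at 0.5 h includes the shallow library, and without it the early risers with any called rise included 935 that fell and 567 that rose in the step, against 958 and 567 with it (2597 such rows, 14% of those tested).

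Rows at least 2-fold changed at 24 h were called in the step more often in the direction of that change than against it. The change from 0 to 24 h spans the step, so some of this was built in although no library is shared. Rows at least 2-fold higher at 24 h than at 0 h numbered 2888 (15.6%), of which 1044 (36.1%) were called higher and 227 (7.86%) lower between 1 and 3 h. Rows at least 2-fold lower at 24 h numbered 2500 (13.5%), of which 531 (21.2%) were called lower and 166 (6.64%) higher. Not called in the step were 1617 of the rows higher at 24 h and 1803 of those lower. The median step change was 0.34 on the log2 scale in the rows higher at 24 h and -0.20 in the rows lower at 24 h. Across all 18526 rows the step correlated with the change from 0 to 24 h at r = 0.276 (Spearman 0.259) and with the change from 0 to 0.5 h at r = -0.164 (Spearman -0.107). These coefficients are across rows, which are not independent replicates, and come from comparisons that share no library but share the fit.

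Taking both classes together separated the courses further. Of 1030 rows at least 2-fold higher at 0.5 h and not 2-fold changed at 24 h, 470 (45.6%) were called lower in the step and 146 (14.2%) higher, with a median log2 change of -0.50. Of 108 rows higher at 0.5 h but lower at 24 h, 62 (57.4%) were called lower and 5 (4.63%) higher. Of 590 rows higher at both times, 225 (38.1%) were called higher and 152 (25.8%) lower. Of 2268 rows unchanged at 0.5 h and higher at 24 h, 808 (35.6%) were called higher and 74 (3.26%) lower. Of 2030 rows unchanged at 0.5 h and lower at 24 h, 445 (21.9%) were called lower and 129 (6.35%) higher. Here unchanged means not called at 2-fold. Rows higher at 0.5 h but not at 24 h must largely fall at some time between the 2. Rows higher at 24 h only must largely rise there. The leading direction in these classes was therefore partly set by their definition, and the shares describe how much of it was called in this window. The 1 to 3 h window thus held falls of rows with an early pulse, and both rises and falls of rows higher at 0.5 and 24 h. It also held rises of rows that were not among the early 2-fold risers. The rows of this last kind may have risen before 1 h by less than 2-fold or after 0.5 h. With DESeq2's size factors the largest of these classes gave 33.0% higher and 3.86% lower, and the class of early pulses 12.9% higher and 47.3% lower.

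**Figure D4:**
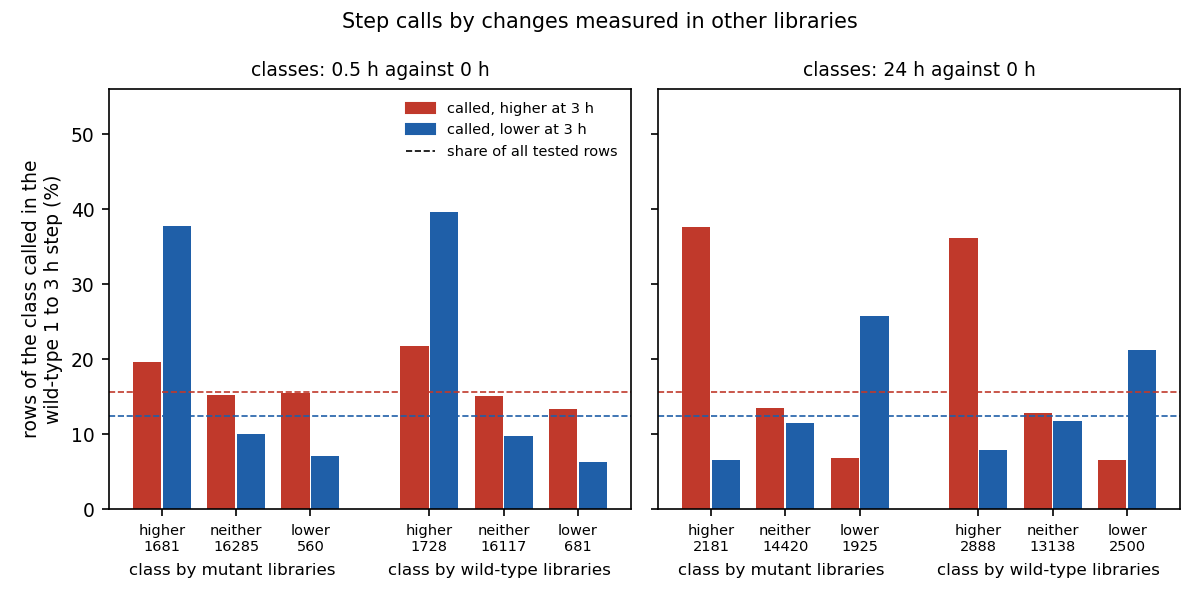
Share of rows (%) called higher (red) or lower (blue) at 3 h than at 1 h in the wild type, by class of an earlier or later change of at least 2-fold, with the number of rows under each class. Classes come from mutant or wild-type libraries at 0, 0.5 and 24 h, and dashed lines are the shares of all tested rows, 15.7% higher and 12.4% lower. Falls lead among rows higher at 0.5 h (37.8% and 39.6%) and rises among rows higher at 24 h (37.6% and 36.1%).

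Classes made in mutant libraries, which come from other plants, gave close to the same shares. The change from 0 to 24 h in the mutant spans the same interval. Of 1681 rows at least 2-fold higher at 0.5 h in hsfa1abd-2 (9.07%), 635 (37.8%) were called lower and 329 (19.6%) higher in the wild-type step. Of 560 rows at least 2-fold lower at 0.5 h in the mutant (3.02%), 87 (15.5%) were called higher and 40 (7.14%) lower. Of 2181 rows at least 2-fold higher at 24 h (11.8%), 821 (37.6%) were called higher and 145 (6.65%) lower. Of 1925 rows at least 2-fold lower at 24 h (10.4%), 496 (25.8%) were called lower and 133 (6.91%) higher. In the reverse reading, the 2597 rows with any called rise at 0.5 h in the wild type were read in the mutant step. There 735 (28.3%) were called lower and 546 (21%) higher, where 10.1% and 12.8% of all tested rows were. In the wild-type step, 958 of the same rows (36.9%) were called lower and 567 (21.8%) higher, against 12.4% and 15.7% of all tested rows.

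The same step in the mutant gave a further reading in libraries that the wild-type step does not use. In hsfa1abd-2, 4257 rows (23%) were called between 1 and 3 h, 2379 (12.8%) higher and 1878 (10.1%) lower at 3 h. Of the 2901 wild-type risers, 1846 (63.6%) were also called higher in the mutant and 3 were called lower. Of the 2304 wild-type fallers, 1320 (57.3%) were also called lower and 5 were called higher. The shared rows are 77.6% of all mutant risers and 70.3% of all mutant fallers. Called or not, 2786 of the risers (96%) and 2196 of the fallers (95.3%) had the same sign in the mutant. Over the 5205 rows called in the wild type the log2 folds correlated at r = 0.915 across rows, and over all 18526 rows at r = 0.772.

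**Figure D5:**
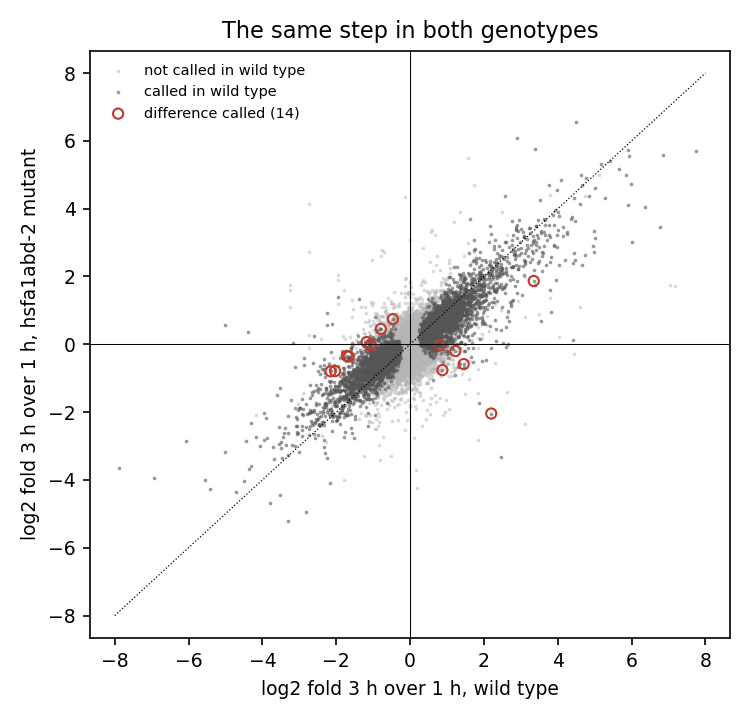
Log2 fold of 3 h over 1 h in the hsfa1abd-2 mutant (y axis) against the wild type (x axis) for 18526 tested rows. Dark points are the 5205 rows called in the wild type, red circles the 14 rows whose step differed between genotypes, and the dotted line marks equal folds. Most called rows have the same sign in both genotypes, and the circled rows lie away from the line.

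The 4 named rows changed in the mutant in the same direction. Row 22561 had 882.4, 647.3 and 1106 CPM at 3 h in the mutant, against 21.0, 18.4 and 16.7 CPM at 1 h, with a log2 fold of 5.55 (edgeR adjusted p = 1.15e-11). Row 22550 had a log2 fold of 5.18 (edgeR adjusted p = 6.67e-11) and row 8539 one of -4.03 (edgeR adjusted p = 3.05e-12). Row 30247 had 12.3, 18.8 and 28.6 CPM at 3 h in the mutant, against 119.6, 170.1 and 136.9 CPM at 1 h, with a log2 fold of -2.84 (edgeR adjusted p = 3.67e-08). The mutant's 1 h libraries of that row all lay below those of the wild type. Its step differed by 1.60 between mutant and wild type, which did not pass the test (edgeR adjusted p = 0.2). For the other 3 rows the difference was -0.49 to 0.48 on the log2 scale, also short of the test (edgeR adjusted p = 0.789 to 0.873).

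The size of the step in the mutant depended on which genotype chose the rows, while that in the wild type changed little with the choice. For each library the mean log2 CPM of the 2-fold risers minus that of the 2-fold fallers was taken, in which the scaling of libraries largely cancels. With rows chosen in the wild type, this measure was 1.03 ± 0.0348 at 3 h and -1.44 ± 0.0416 at 1 h in the mutant, a step of 2.47. In the wild type it was 1.40 ± 0.0374 at 3 h and -1.83 ± 0.0577 at 1 h, a step of 3.23 (SD, n = 3 each). With rows chosen in the mutant, the step was 3.15 in the mutant and 3.09 in the wild type. Rows chosen in a genotype can favour that genotype, so these values describe the sets and no test is given. The 2 choices were not symmetric. Rows chosen in the wild type had median log2 changes of 1.51 and -1.47 there, against 1.26 and -1.07 in the mutant. Rows chosen in the mutant had 1.52 and -1.41 there, against 1.53 and -1.46 in the wild type.

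Tested directly, the step differed between genotypes in 14 rows (0.0756% of those tested), and 1442 had an unadjusted p under 0.05 in the same edgeR test. A share of 0.05 of tested rows would reach that level with no difference at all, so the 1442 are not read as differing rows. In 8 of the 14 rows the mutant step was the higher, by 1.05 to 1.37 on the log2 scale, and in 6 the lower, by -4.24 to -0.85 (edgeR adjusted p = 0.000128 to 0.0478). All 8 of the first kind were called falls in the wild type, with a median log2 change of -0.18 in the mutant and -1.42 in the wild type. All 6 of the second kind were called rises in the wild type, with medians of -0.39 in the mutant and 1.34 in the wild type. Mean levels of these 6 rows at 1 h were 2.50, 10.5, 15.6, 11.4, 72.2 and 216 CPM in the mutant. In the same order they were 15.5, 31.4, 61.8, 89.4, 30.4 and 178 CPM in the wild type. Where the mutant mean was the lower, the genotypes thus stood apart before the step. The difference that chose the 14 rows includes the wild-type step, so the medians are selected values and describe these rows only. In 8 of the 14 the fitted change had the opposite sign in the mutant, of which 3 were called in opposite directions in the 2 genotypes. In 13 the change was the smaller in size in the mutant. The row with the largest difference had 0, 1.21 and 0.596 CPM at 3 h and 1.75, 3.50 and 2.25 CPM at 1 h in the mutant. In the wild type it had 59.2, 67.1 and 87.5 CPM at 3 h and 15.4, 18.6 and 12.6 CPM at 1 h. Mutant counts of this row were 0 to 12 per library at these times, so its fold there rests on few reads. The row with the smallest adjusted p had 169, 153 and 184 CPM at 3 h and 273, 298 and 305 CPM at 1 h in the mutant. In the wild type it had 109, 112 and 118 CPM at 3 h and 482, 473 and 430 CPM at 1 h, so that the genotypes did not overlap at either time. The count of 14 was 39 by DESeq2. Leaving out mutant 1 h replicate 2 gave 5 and leaving out wild-type 3 h replicate 2 also gave 5. It was 7 on leaving out replicate 1 at 1 h of either genotype, or replicate 3 at 3 h of the mutant.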

How the data were processed

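RNA from hypocotyl explants was sequenced with a stranded mRNA library kit, per the labels' protocols. The submitters' processing notes name fastp, STAR and the TAIR10 build. Tool versions, the counting step, its strand setting and its annotation are not stated there. The authors deposited raw counts in 1 table of 36635 rows, with no gene identifier and no normalization. Paralogs, overlapping genes and antisense partners may therefore share reads. A reference genome was at hand but not used, since rows can be matched to it only by assuming an order.

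filterByExpr over the 10 groups (minimum count 10, minimum total 15) kept 18526 rows, which hold 99.8% of counts. After TMM scaling, 1 robust quasi-likelihood model covered all 30 libraries (edgeR 4.0.16, limma 3.58.1, R 4.3.3), with 20 residual degrees of freedom and a biological coefficient of variation of 13.1%. Benjamini-Hochberg adjustment ran over all tested rows of a contrast. A prior count of 2 was added for log2 CPM. The SE of a fold is its size divided by the square root of F. DESeq2 1.42.0 was an alternative, and the closing section gives the others. Total counts were 3164714 to 4296509 outside the shallow library. The test was checked on simulated counts. Named rows were the 2 largest called rises and falls with at least 10 CPM in both groups and no overlap. The comparison, classes and rule were chosen with earlier results of these data known.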

Additional observations from a re-analysis of the deposited data

Results flagged for a closer look

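The step from 1 to 3 h differed between hsfa1abd-2 and the wild type in 14 rows by edgeR's test of the difference itself (adjusted p = 0.000128 to 0.0478). The size of the difference was 0.85 to 4.24 on the log2 scale. Of these rows, 9 had been called higher at 0.5 h than at 0 h in mutant libraries and 11 in wild-type libraries. Among all 18526 tested rows, 2713 were so called in mutant libraries and 2597 (14%) in wild-type libraries. No group has more than 3 libraries, so single libraries were not examined as outliers.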

How the results depend on the processing

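Of 216 values recomputed under other settings, 200 stayed the same and 16, all of them counts, moved. A count stayed the same if it was within 1.5 times of its main value. The 40 values of named rows had to keep their direction and their side of the threshold, and all did. Counts were not checked for direction. The balance of rises and falls did turn, with 2401 rises and 2641 falls without the 5 most abundant rows, against 2901 and 2304. Wild-type step calls were 4806 by DESeq2, 5069 with its size factors in edgeR, 4748 with no filter, 5835 with the compared libraries alone and 5227 without the shallow library, against 5205. Leaving out 1 compared replicate gave 4273 to 4455. The named rows kept their calls in all 40 recomputed values. The count of differing steps was 39 by DESeq2, whose own filter left 7184 rows without an adjusted p, 26 with no filter and 5 to 19 with 1 replicate left out, and the cause was not tested. Requiring 2-fold calls on both sides reduced the class counts by construction. Rows higher at 0.5 h then gave 255 rises and 453 falls in the step, rows lower at 0.5 h 47 and 22, rows higher at 24 h 584 and 135, and rows lower at 24 h 65 and 237.

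Same-numbered 3 h and 1 h libraries deviated together with correlations of 0.0167, 0.0913 and 0.0357, so the numbers were not taken to pair them, and 3 h replicate 3 correlated better with 1 h replicate 1 (0.0546). A replicate block gave 5115 wild-type calls in all 30 libraries and 6074 in the 6 alone, and 22 differing steps in the 12 libraries alone. Rows up to 7.39 CPM, the lowest of 4 bins by level, allow only larger changes to be called.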
